A study of Mus musculus with 6 samples.

Results

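Transcripts of fatty acid metabolism were ranked in untreated mature adipocytes by real-time PCR array. The adipocytes were 3T3-L1 cells, an established mouse line of fibroblast-like preadipocytes that fill with lipid droplets after hormonal induction. The series holds 6 samples, and the 3 titled as untreated controls are described here, with 84 genes of the 96 wells on each plate. The remaining wells were 5 for reference genes and 7 for plate controls, and they were left out of the ranking.

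All 6 samples were mature adipocytes on day 14 after induction with insulin, dexamethasone and IBMX, kept for a further 24 hours with 500 ng/ml recombinant murine IL-15 (rmIL-15, 3 samples) or with 0 ng/ml (untreated, 3 samples). From each sample 400 ng of RNA was reverse transcribed and run on 1 plate, with 1 well per gene. Titles and table headers name the same 3 samples as untreated, whereas the label for the activation agent runs the other way, so the ranking of the plates titled rmIL-15 was computed as an alternative. No source used here says that the 3 untreated samples came from separate cultures, and the spread between them may be technical. What share of the cells had become adipocytes is not stated in the sources.

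A well is reported by its threshold cycle (Ct), the PCR cycle at which its fluorescence crosses a set level, so that a lower Ct means an earlier signal. Where the product doubles at every cycle, 1 cycle less corresponds to 2 times as much template. Assay efficiencies were not given in the sources, and orders between genes are therefore orders of Ct. A Ct above 35, or a well with no crossing (undetermined), was set to 35, which is referred to as the limit. A gap between 2 genes was taken within each plate. It was counted as larger than the spread where the order was the same on all 3 plates and the mean gap exceeded 2 SD of that gap.

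Adipocytes take up fatty acids that lipoprotein lipase releases from circulating triacylglycerol, carry them in the cytosol on binding proteins, activate them to acyl-CoA and either esterify them onto glycerol 3-phosphate or oxidise them. Long acyl chains enter mitochondria through the carnitine shuttle, and peroxisomes shorten very long and branched chains. Many of these steps are encoded by several related genes, and the members used differ between tissues. A single plate therefore shows which member of each family gives the earliest signal in a given cell.

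Of the 84 genes, 71 (84.5%) were under the limit on all 3 untreated plates, 2 on only some plates and 11 on none. Mean Ct of the 71 genes ran from 16.75 to 34.09, a range of 17.34 cycles, with a median of 25.24. The lowest Ct was that of *Fabp4*, the adipocyte form of the fatty acid binding proteins, at 16.63, 16.53 and 17.11 cycles on the plates of replicates 1, 2 and 3. *Lpl*, which encodes lipoprotein lipase, followed at 17.44, 17.50 and 18.18. The gap between them was 0.95 ± 0.13 cycles (SD, n = 3), with *Fabp4* ahead on all 3 plates. A further 3.15 ± 0.17 cycles (SD, n = 3) separated *Lpl* from the third gene, *Fabp5*. If the product doubles at every cycle in every well, *Fabp4* made up 47.7% and *Lpl* 24.9% of the summed signal of all genes, and the 10 leading genes together 86.5%.

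After this pair of genes the ranking was close. *Fabp5*, a second binding protein, averaged 20.86 ± 0.57 cycles. *Gpd1*, the cytosolic dehydrogenase that makes glycerol 3-phosphate, averaged 20.94 ± 0.71 (SD, n = 3 each). Their order changed between plates, with a gap of 0.08 ± 0.17 cycles. *Hmgcs1*, the cytosolic HMG-CoA synthase of sterol synthesis, averaged 21.56 ± 0.31, and *Acsl1*, an acyl-CoA synthetase for long chains, 21.76 ± 0.055. *Acat2*, a cytosolic thiolase that joins acetyl-CoA units, averaged 21.95 ± 0.42. *Acadm* and *Acadl*, dehydrogenases for medium and long acyl chains, closed the first 10 at 22.01 ± 0.48 and 22.33 ± 0.069 (SD, n = 3 each). None of the neighbouring pairs from *Fabp5* to *Acadl* was separated by more than the spread. Over the whole ranking this held for 4 of 70 neighbouring pairs, among them the first 2 gaps, and 29 pairs lay within 0.1 cycles of each other. Most neighbouring ranks after the first 2 gaps are thus an order of means, not of separated levels. This does not extend to genes further apart in the list.

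**Figure D1:**
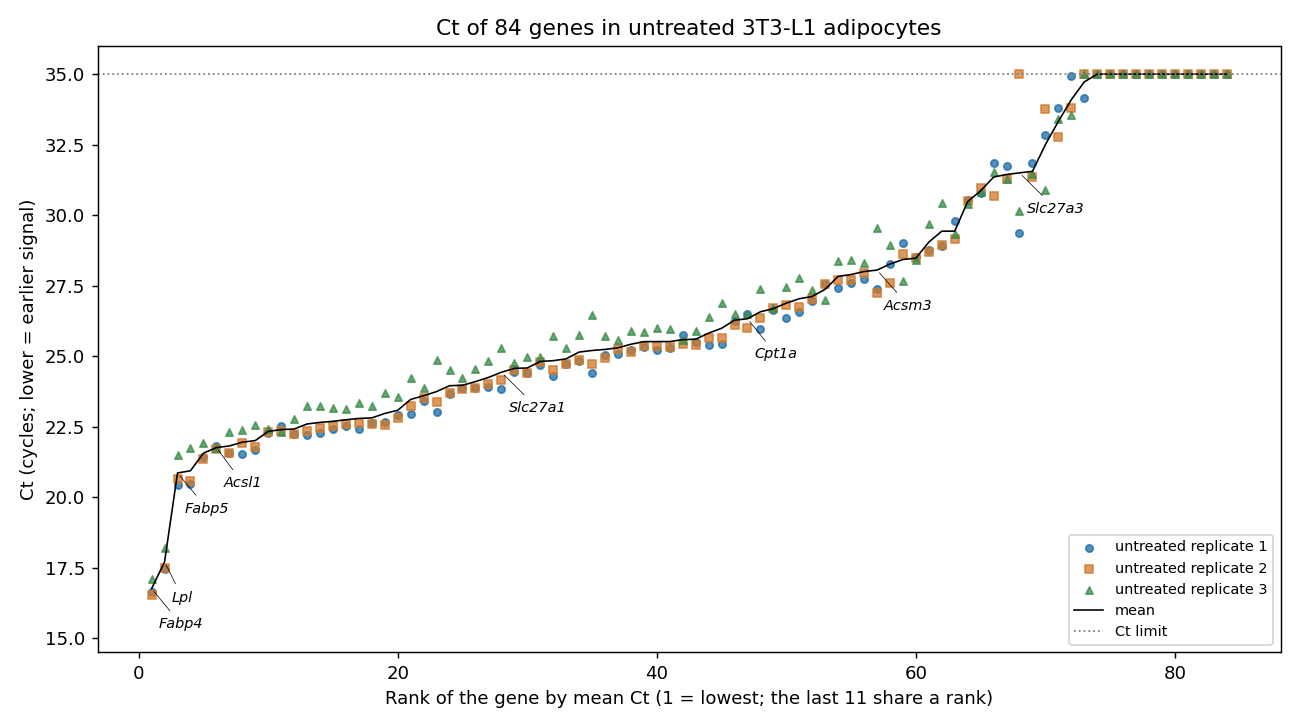
Ct of each of the 84 genes (vertical axis, cycles, values above 35 drawn at 35) against the rank of its mean Ct (horizontal axis), with a marker for each untreated replicate, a line for the mean and a dotted line at the limit of 35. *Fabp4* and *Lpl* stand below the other genes, the means then climb without a wide gap to 34.09, and 11 genes lie on the limit on all 3 plates.

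Families hold fewer genes than the whole list, so their neighbouring members tend to lie further apart. The order within families is described here and was not compared with that of the whole list. The plate held 19 families with more than 1 member. In 17 of them the member with the lowest mean Ct was ahead on all 3 plates by more than the spread, and in the acyl-CoA dehydrogenases and the thiolases it was not. The 17 include 3 families whose second member was at the limit on all plates. There the order was fixed in advance, and the spread is that of the leading member alone. The gap from the first to the second member had a median of 2.50 cycles, was over 2 cycles in 14 families, and is a lower bound in 3 where the second member was at the limit. Of 48 neighbouring pairs within families, 35 had both members under the limit on all plates, and 27 of these 35 were separated by more than the spread. The largest gap of the other 8 was 1.07 cycles. With 3 plates the two-sided exact permutation test of a gap, by sign flips, cannot give a p below 0.25, and 37 of the 48 pairs reached that value. Nothing is read from this count. Pairs were put in order of mean Ct before the test, and 13 of the 48 had a member at the limit on at least 1 plate. Where only the later member was at the limit, and on all plates, the outcome was fixed in advance.

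**Figure D2:**
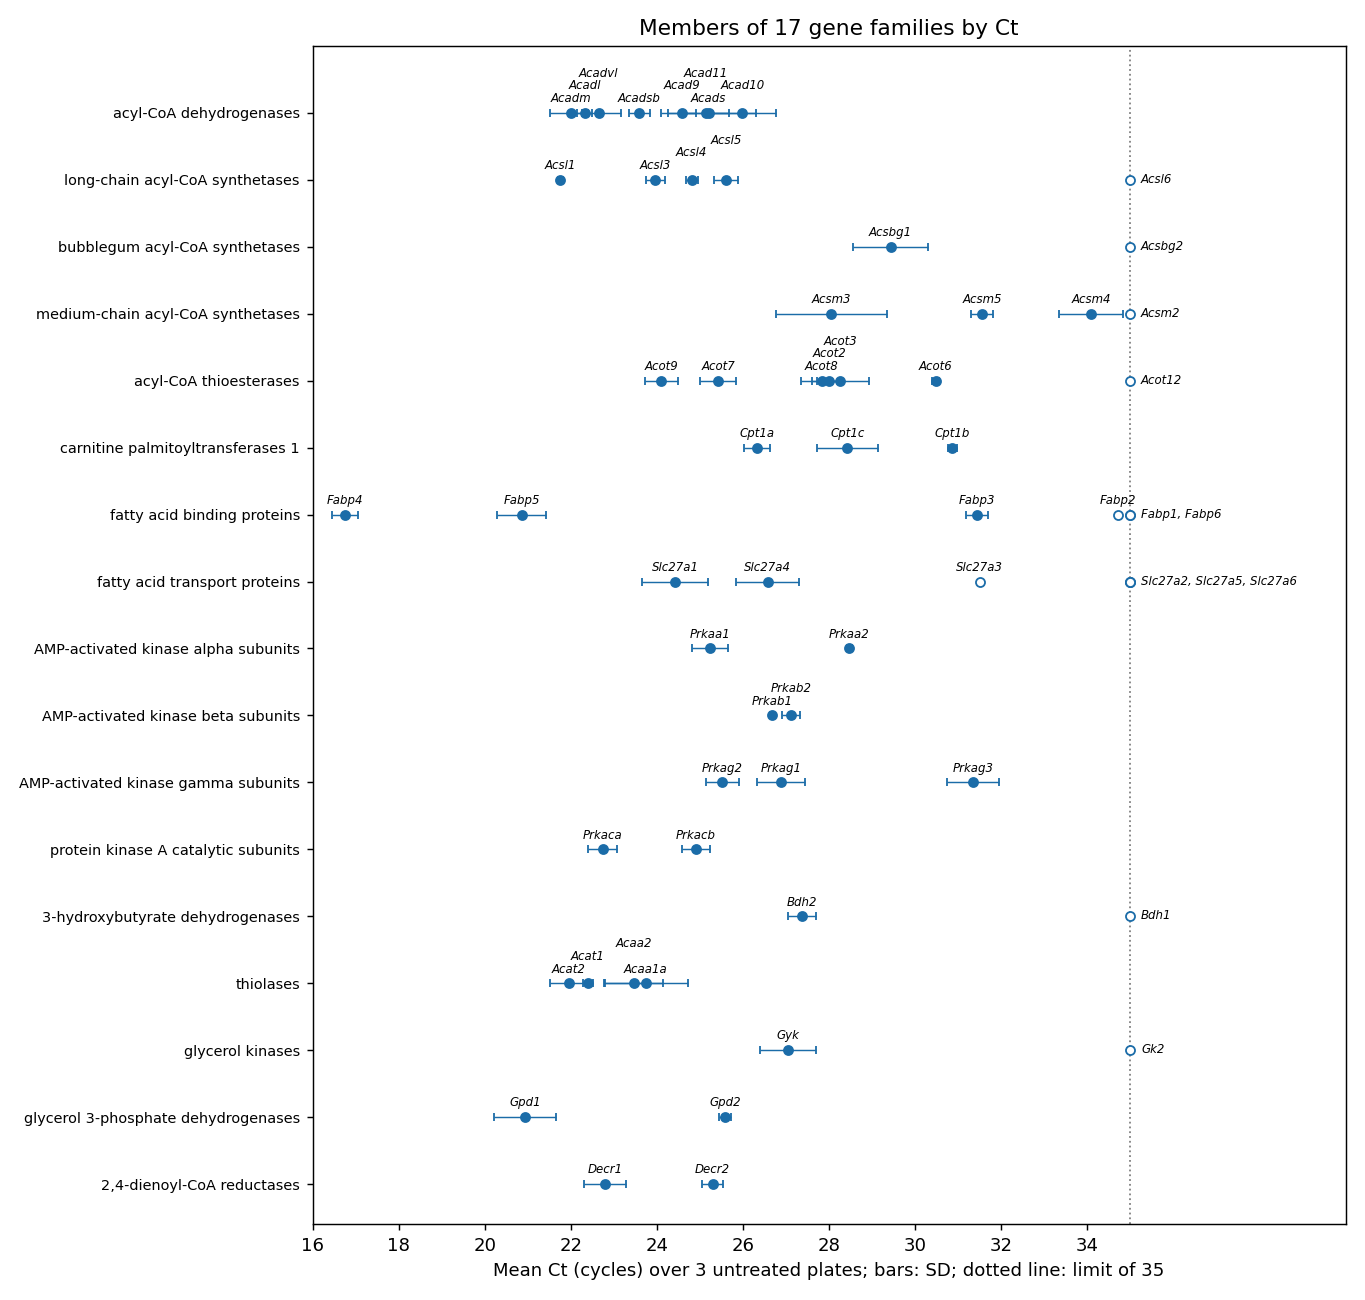
Mean Ct in cycles (horizontal axis) of the members of 17 families (rows) on the 3 untreated plates, with bars for the SD. Filled points were under the limit on all plates and open points on only some or none, and the dotted line is the limit of 35. Leading members are well apart from the second in the binding proteins and the glycerol 3-phosphate dehydrogenases, and overlap with it in the acyl-CoA dehydrogenases and thiolases.

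Among the genes of uptake and binding, the fatty acid binding proteins covered more cycles than any other family. These small proteins hold fatty acids in the cytosol, and most are named for the tissue in which they are abundant. *Fabp5* was at 20.42, 20.66 and 21.50 cycles, 4.10 ± 0.30 cycles (SD, n = 3) behind *Fabp4*, which is 17.2 times less template if both assays double. *Fabp3*, the form of heart and muscle, was at 31.73, 31.29 and 31.30, a further 10.58 ± 0.76 cycles behind *Fabp5*. *Fabp2*, the intestinal form, was under the limit on 1 plate only, at 34.17 cycles in replicate 1, 38.97 in replicate 2 and undetermined in replicate 3. *Fabp1* and *Fabp6*, the liver and ileal forms, were under the limit on no plate. The first 2 members of this family thus gave early signals, and the other 4 lay at least 10 cycles later on the mean or at the limit.

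The fatty acid transport proteins, which aid uptake at the membrane and activate very long chains, began later. *Slc27a1*, the form best known from adipose tissue and muscle, was at 23.85, 24.14 and 25.29 cycles. *Slc27a4* was at 25.97, 26.36 and 27.39, with a gap of 2.14 ± 0.063 cycles (SD, n = 3) to *Slc27a1*, nearly the same on each plate although both genes came later in replicate 3. *Slc27a3* was at 29.37 cycles in replicate 1 and 30.13 in replicate 3 but undetermined in replicate 2, so its place in the ranking rests on 2 plates. This was the largest disagreement between plates for any gene, and each gene had only 1 well per plate. *Slc27a2* and *Slc27a5*, forms of the liver, and *Slc27a6*, a form of the heart, were at the limit on every plate.

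Both lipases on the plate were under the limit throughout. *Lipe* encodes hormone-sensitive lipase, which cleaves stored acylglycerols inside the cell, whereas lipoprotein lipase acts outside it. *Lipe* was at 22.19, 22.35 and 23.24 cycles. It trailed *Lpl* by 4.89 ± 0.16 cycles (SD, n = 3) and stood at rank 13.

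Of the acyl-CoA synthetases for long chains, *Acsl1* led. It was at 21.82, 21.72 and 21.73 cycles, the second smallest spread of all genes under the limit on every plate. *Acsl3* averaged 23.97 ± 0.22 cycles, *Acsl4* 24.81 ± 0.14 and *Acsl5* 25.60 ± 0.27 (SD, n = 3 each). Each step in this order was larger than the spread, with gaps of 2.21 ± 0.24 cycles from *Acsl1* to *Acsl3*, 0.85 ± 0.10 from *Acsl3* to *Acsl4* and 0.79 ± 0.18 from *Acsl4* to *Acsl5*. *Acsl6*, a form of brain, was at the limit, at least 9.40 cycles behind *Acsl5*. The members from *Acsl1* to *Acsl5* were thus separated in Ct. The step from *Acsl3* to *Acsl4* would vanish if the trailing assay gained 1.95 in place of 2 copies per copy and cycle. For the step from *Acsl4* to *Acsl5* this value was 1.96.

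The synthetases for medium chains and the bubblegum type came later. *Acsm3* was at 27.38, 27.24 and 29.54 cycles, later in replicate 3 than on both other plates. *Acsm5* followed at 31.55 ± 0.26 cycles and *Acsm4* at 34.09 ± 0.75 (SD, n = 3 each), the highest mean of any gene under the limit on all plates, and *Acsm2* was at the limit. *Acsbg1*, a bubblegum synthetase for very long chains, was at 28.92, 28.95 and 30.43 cycles. The related *Acsbg2*, known from testis, was undetermined on all 3 plates. It was the only gene of the plate with no recorded Ct in any untreated sample.

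The acyl-CoA thioesterases hydrolyse acyl-CoA back to the free acid. *Acot9*, a mitochondrial form, led at 23.87, 23.88 and 24.54 cycles, and *Acot7*, a form abundant in brain, followed at 25.21, 25.14 and 25.91. The gap was 1.32 ± 0.057 cycles (SD, n = 3). *Acot8*, *Acot2* and *Acot3* lay together at 27.83 ± 0.48, 28.00 ± 0.29 and 28.26 ± 0.67 cycles (SD, n = 3 each), and their order changed between plates. *Acot8* is peroxisomal and *Acot2* mitochondrial. *Acot6* was later at 30.48 ± 0.077 cycles, and *Acot12*, a cytosolic form of the liver, was at the limit. *Acot2*, *Acot3* and *Acot6* are close paralogs of a gene cluster, and whether their assays tell them apart was not tested.

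Carnitine palmitoyltransferase 1 commits long chains to the mitochondrion. *Cpt1a*, the form known from the liver, led in these adipocytes at 26.49, 25.98 and 26.50 cycles. *Cpt1c*, the form of neurons, was at 29.02, 28.61 and 27.65 cycles and was among the 7 genes with their earliest signal in replicate 3. *Cpt1b*, the form of muscle, was at 30.77, 30.98 and 30.84. The gaps were 2.10 ± 0.83 cycles between *Cpt1a* and *Cpt1c* and 2.43 ± 0.72 between *Cpt1c* and *Cpt1b* (SD, n = 3 each). All 3 lay past the median of all 84 genes, which was 25.59 cycles. The other carnitine acyltransferases, named here after their values were seen, were earlier. *Crat*, which handles acetyl groups, averaged 22.81 ± 0.36 cycles, *Cpt2*, the inner membrane enzyme, 23.95 ± 0.47, and *Crot*, the peroxisomal enzyme for medium chains, 25.51 ± 0.30 (SD, n = 3 each).

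For mitochondrial beta oxidation, 9 of 9 listed genes were under the limit on every plate, against 84.5% of all genes, and their median was 22.69 cycles. The list was drawn up after the values were seen and leaves out dehydrogenases such as *Acad10*, so nothing is read from its count or median. *Acadm* and *Acadl* had the lowest mean Ct of the 8 acyl-CoA dehydrogenases. *Acadm* was at 21.67, 21.79 and 22.56 cycles and *Acadl* at 22.29, 22.30 and 22.41, so that *Acadm* was earlier on 2 plates and later in replicate 3. The gap of 0.33 ± 0.41 cycles (SD, n = 3) was within the spread. The third member, *Acadvl*, named here after its values were seen, was 0.32 ± 0.45 cycles (SD, n = 3) behind *Acadl*. This gap was also within the spread, with *Acadvl* earlier in replicate 1. *Acads*, for short chains, was at 24.41, 24.73 and 26.46 cycles, and the last of this family was *Acad10*, at 25.99 ± 0.78 cycles. The 2,4-dienoyl-CoA reductases, which serve the oxidation of unsaturated chains, were in a fixed order. The mitochondrial *Decr1* averaged 22.79 ± 0.48 cycles and the peroxisomal *Decr2* 25.29 ± 0.24 (SD, n = 3 each), with a gap of 2.50 ± 0.25 cycles.

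The thiolases, which close each round of oxidation or join acetyl-CoA units, were close together. *Acat2* was at 21.53, 21.93 and 22.38 cycles and *Acat1*, the mitochondrial enzyme, at 22.53, 22.36 and 22.30. Their order turned in replicate 3, and the gap of 0.45 ± 0.54 cycles (SD, n = 3) was within the spread. *Acaa2*, the mitochondrial thiolase of beta oxidation, averaged 23.46 ± 0.67 cycles, and *Acaa1a*, the peroxisomal one, 23.74 ± 0.97 (SD, n = 3 each). No neighbouring pair of this family was separated by more than the spread.

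For peroxisomal beta oxidation, listed in the same way, 7 of 7 genes were under the limit on every plate, against 84.5% of all genes, with a median of 26.28 cycles. *Acox2*, which oxidises branched chains and bile acid intermediates, was at 27.60, 27.69 and 28.40 cycles. *Acox3*, a further oxidase of branched chains, followed at 29.04 ± 0.57 (SD, n = 3), 1.15 ± 0.16 cycles behind *Acox2* and later than it on all 3 plates.

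*Hmgcs1*, of sterol synthesis, was at 21.41, 21.35 and 21.91 cycles. Genes of ketone body metabolism came later. *Bdh2*, a cytosolic 3-hydroxybutyrate dehydrogenase, was at 27.57, 27.55 and 27.00 cycles, whereas *Bdh1*, the mitochondrial enzyme of ketone body metabolism, was at the limit, at least 7.63 cycles later. *Oxct2a*, a ketone body transferase of testis, averaged 33.32 ± 0.51 cycles.

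The genes of glycerol 3-phosphate showed 1 early and 1 undetected member. *Gpd1* was at 20.48, 20.57 and 21.76 cycles, and *Gpd2*, the mitochondrial enzyme of the glycerol phosphate shuttle, at 25.73, 25.45 and 25.57. *Gpd1* thus came later in replicate 3 while *Gpd2* did not, and the gap was 4.65 ± 0.75 cycles (SD, n = 3). Glycerol kinase, annotated *Gyk*, was at 26.57, 26.75 and 27.78 cycles. The testis paralog *Gk2* was at the limit, at least 7.96 cycles behind *Gyk*.

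The AMP-activated protein kinase senses energy state and consists of a catalytic alpha, a scaffolding beta and a nucleotide-binding gamma subunit. Of its subunit genes 7 of 7 were under the limit on every plate, near the share of 84.5% among all genes, with a median of 26.88 cycles. *Prkaa1* was at 25.06, 24.94 and 25.72 cycles and *Prkaa2* at 28.53, 28.48 and 28.42, a gap of 3.24 ± 0.47 (SD, n = 3). *Prkab1* and *Prkab2* were close, at 26.68 ± 0.045 and 27.12 ± 0.22 cycles (SD, n = 3 each). Their gap of 0.43 ± 0.21 cycles was larger than the spread, but would vanish if the trailing assay gained 1.98 in place of 2 copies per copy and cycle. *Prkag2* led the gamma subunits at 25.52 ± 0.38 cycles, before *Prkag1* at 26.88 ± 0.56 and *Prkag3*, the form of skeletal muscle, at 31.35 ± 0.60 (SD, n = 3 each). The leading member of each subunit was thus *Prkaa1*, *Prkab1* and *Prkag2*. Protein kinase A carries the lipolytic signal. Of its catalytic subunits, *Prkaca* was at 22.52, 22.58 and 23.13 cycles and *Prkacb* at 24.71, 24.73 and 25.27, a gap of 2.16 ± 0.029 cycles (SD, n = 3).

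The 11 genes under the limit on no plate were *Acot12*, *Acsbg2*, *Acsl6*, *Acsm2*, *Bdh1*, *Fabp1*, *Fabp6*, *Gk2*, *Slc27a2*, *Slc27a5* and *Slc27a6*. They were not all alike. A Ct above the limit was recorded on all 3 plates for 5 of them, on 1 or 2 plates for 5, and on no plate for *Acsbg2*. Of their 33 wells, 11 were undetermined and the others ran from 35.14 to 39.82 cycles. *Acot12* came nearest to the limit, at 35.14 cycles in replicate 2 against 38.89 and 38.67 in replicates 1 and 3, and *Slc27a6* was at 35.88 in replicate 2 and undetermined in the others. The genomic DNA control well, which should hold no transcript signal, was at 38.11, 38.45 and 39.83 cycles. These genes are not detectable at this limit, and a low level is not told apart from none.

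The label of the cells was set against markers. All 6 adipocyte markers, *Fabp4*, *Lpl*, *Gpd1*, *Acsl1*, *Lipe* and *Slc27a1*, were under the limit on all plates and below the median of all genes, between 16.75 and 24.43 cycles. Of all 84 genes, 84.5% were under the limit on all plates, 11 genes were under it on none, and 42 lay below the median. The 6 of 6 under the limit is near that share, and nothing is read from it. Of 10 genes of liver and small intestine, 6 were at the limit on all plates, *Fabp2* was under it on 1 plate, and 3 were under it on all, among them *Acsm3* and *Acsm5*. Of 4 genes of heart and skeletal muscle, *Cpt1b*, *Prkag3* and *Fabp3* were under the limit at 30.86 to 31.44 cycles, and *Slc27a6* was not. Of 3 genes of brain and nerve on the plate, *Cpt1c* and *Acsbg1* were under the limit at 28.43 and 29.43 cycles, and of 3 testis genes only *Oxct2a* was. The listed genes of liver, muscle, brain and testis lay past the median of all genes, but the lists were chosen with earlier results known. They leave out *Cpt1a*, known from the liver, at 26.33 cycles, and *Acot7*, abundant in brain, which at 25.42 was below that median of 25.59. *Fabp5* is abundant in macrophages as well as in adipocytes, and its early signal does not separate the cell types. In a culture measured whole, fewer cells of a type and less RNA per cell cannot be told apart.

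**Figure D3:**
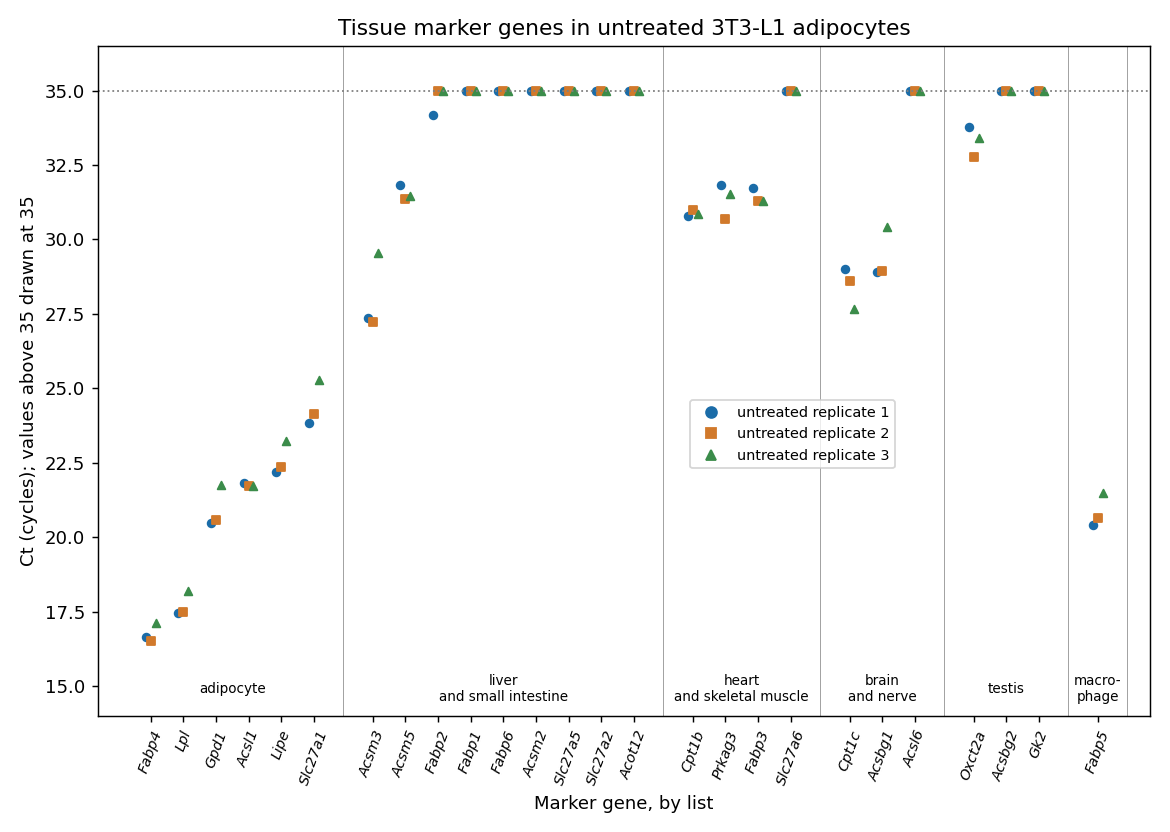
Ct in cycles (vertical axis) of tissue marker genes (horizontal axis, grouped by list) on the 3 untreated plates, with a marker for each replicate and values above 35 drawn at 35 (dotted line). The 6 adipocyte genes lie between 16.53 and 25.29 cycles on single plates, and the genes drawn for liver, muscle, brain and testis above 27 cycles or at the limit.

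The 3 plates were not alike. Replicate 3 came later than replicates 1 and 2, by a median of 0.65 cycles over the 71 genes, whereas replicate 2 minus replicate 1 had a median of 0.031. Replicate 3 had the highest Ct of the 3 in 55 genes, the lowest in 7 and a middle value in 9. The shift was uneven. It was 2.23 cycles for *Acsm3* and -1.16 for *Cpt1c*, and it was over 1 cycle in 12 genes. *Acsl1* differed by less than 0.1 cycles. The wells that check reverse transcription were at 22.46 to 22.48 cycles in replicate 3, and at 21.79 to 22.31 in replicates 1 and 2. The positive PCR control wells were at 19.09 to 19.24 cycles in replicate 3 and at 19.05 to 19.30 in the others. The part of input or reverse transcription in the shift was not tested.

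A shift that all genes of a plate share leaves the ranking as it is, and the gaps were taken within plates. The median SD of a gene over the plates was 0.42 cycles, and 0.0858 without replicate 3. Among the largest SDs were those of *Slc27a3* (3.06, with its undetermined well set to 35), *Acsm3* (1.29), *Acads* (1.10) and *Acaa1a* (0.97). The smallest among genes under the limit on all plates were those of *Prkab1* (0.045), *Acsl1* (0.055) and *Prkaa2* (0.057). Across the 71 genes, which share plate and input, the order of Ct was similar between plates, with Spearman's rho of 0.997 for replicates 1 and 2, 0.980 for 1 and 3, and 0.986 for 2 and 3. SDs differed little by level, with medians of 0.40 cycles for the 31 genes at a mean of 20 to 25, 0.42 for the 30 at 25 to 30 and 0.38 for the 8 at 30 to 35.

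**Figure D4:**
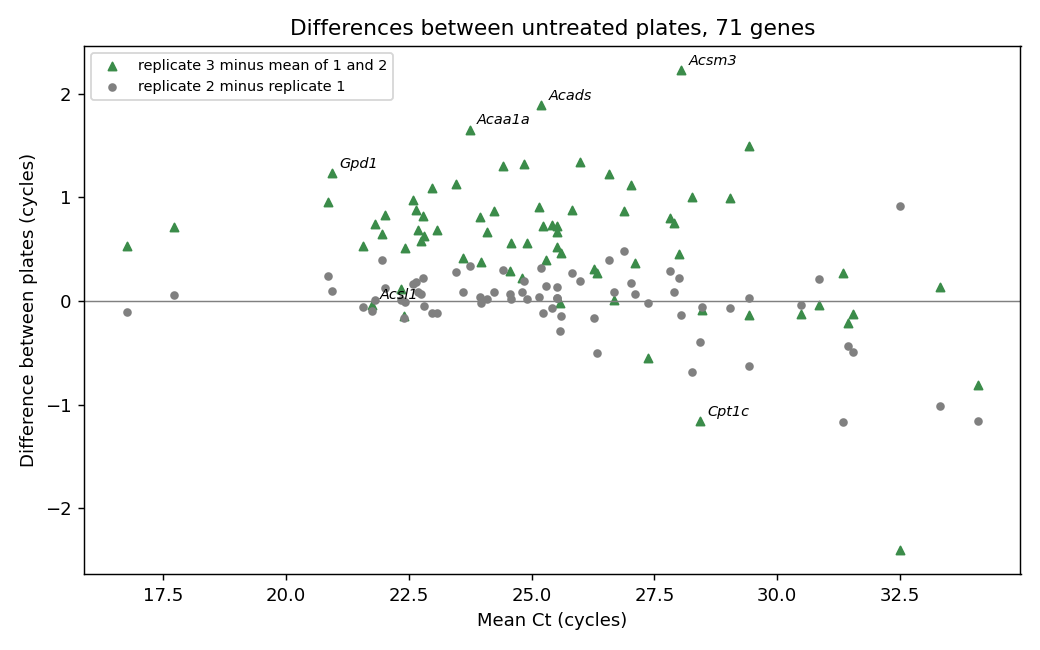
Difference in Ct between untreated plates (vertical axis, cycles) against mean Ct (horizontal axis, cycles) for the 71 genes under the limit on all plates. Triangles are replicate 3 minus the mean of replicates 1 and 2, with a median of 0.65, and dots are replicate 2 minus replicate 1, with a median of 0.031.

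The reference wells, named as the deposited tables annotate them, lay at 18.53 ± 0.23 cycles for *B2m*, 18.98 ± 0.53 for *Hsp90ab1*, 19.53 ± 0.26 for *Actb*, 20.18 ± 0.26 for *Gusb* and 25.46 ± 0.44 for *Gapdh* (SD, n = 3 each). *Fabp4* and *Lpl* were the only genes with a lower mean Ct than *B2m*. The well annotated *Gapdh* came later than 38 of the 84 genes. Whether each reference well holds the gene it is annotated with was not tested.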

How the data were processed

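Expression was measured with a commercial SYBR green array of fatty acid metabolism genes (RT2 Profiler). The raw Ct values that the authors deposited, which are not normalized, were used. The authors also deposited normalized values, in cycles and so on a log2 scale with the opposite sign, which are Ct (at most 35) minus the Ct of a reference well. The values are 0 at the well annotated *B2m*, whereas the methods name GAPDH and the table's header an average of housekeeping genes. They served as an alternative and for the gene symbols of the wells. The authors' table of fold changes and 6 further columns of per-sample values were not used.

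Wells that were undetermined or above 35 were given a Ct of 35, and genes were ranked by the mean of 3 plates. Gaps were taken within plates and tested with two-sided exact sign-flip permutation tests. All 84 identifiers were found in RefSeq (GRCm38.p6), 82 under the same symbol, with *Mut* and *Gyk* now named *Mmut* and *Gk*. The ranking by mean Ct was tested on simulated data, and the computation of gaps was not. The simulated noise was independent and of equal size for all genes, with no shift between plates. It therefore does not cover the uneven shift of replicate 3. Python 3.11.15, pandas 2.3.3, NumPy 2.4.6 and matplotlib 3.10.9 were used.

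The genes named are the 10 leading ones, the members of families (in families of over 7 the first, second and last), the genes not under the limit on every plate, the 5 largest and 3 smallest SDs and the tissue markers. Of the genes this rule gives, 2 are not reported here, and tallies include them. The smallest SDs were taken among genes under the limit on all plates, since those of the 11 genes under it on none are 0 by construction. The genes, families and marker lists were chosen with earlier results of these data known, and the role lists after the values were seen. Limits of 33 and 40, no limit, the median, the authors' normalized values, other centrings, a lower efficiency, each plate left out and the plates titled rmIL-15 were tried as alternatives. With 1 well per gene and plate, well error and sample spread are not separated.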

Additional observations from a re-analysis of the deposited data

How the results depend on the processing

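The number of genes under the limit on no plate depended on the limit. It was 11 at a limit of 35, 13 at 33, 1 at 40 and 1 with no limit, and 9 on the plates titled rmIL-15. The median SD was 0.421 cycles on raw Ct, 0.259 minus the plate median, 0.235 minus the well annotated *Gapdh* and 0.277 in the authors' normalized values, which are 0 at the well annotated *B2m*. With 1 plate left out it ranged from 0.0858 (without replicate 3) to 0.474. The count of genes under the limit on all plates stayed between 68 and 76, and 9 or 10 of the first 10 genes were shared with the main ranking under each alternative run for it. The leading member was the same in 19 of 19 families under every limit, with each plate left out and on the plates titled rmIL-15. With trailing assays at 1.9 copies per copy and cycle it was kept in 13 of 19, and not in the acyl-CoA dehydrogenases, thiolases, thioesterases, carnitine palmitoyltransferases 1 and the beta and gamma subunits of AMP-activated kinase. Of 132 leading gaps recomputed under alternatives, 117 stayed within 1 SD, 15 moved further and 0 turned negative. A change of limit cannot move a gap between genes that lie under every limit tried. Such gaps, and the leading members of the families, were therefore bound to stay under those alternatives. No paired analysis was possible because no groups were compared, and gaps were already taken within plates. Signals near the limit have only approximate levels, and 3 plates cannot give a p below 0.25 in the exact test.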
